A study of Rattus norvegicus with 36 samples.

Results

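The data described here are the 12 in vivo pineal gland libraries of Sham and Control rats, 6 of each, out of 36 libraries in the series. They were taken as every library labelled Sham or Control from the in vivo experiment, and they bear on what the sham operation alone did to the pineal transcriptome. The rats were Sprague Dawley, male and female, kept in light for 14 h and dark for 10 h per day and killed at 40 days of age at ZT7 (mid-day) or ZT19 (midnight). Control rats had no surgery. Sham rats were operated on at postnatal day 5. Under anaesthesia the neck was opened and both superior cervical ganglia were exposed by blunt dissection. The wound was then closed with the ganglia and their nerves left in place. Each of the 4 groups (Control day, Sham day, Control night, Sham night) had 3 libraries, and each library was made from a pool of glands, so a replicate is a pool and p-values measure the spread between pools. The anaesthetic of the Sham operation was isoflurane. The sham operation includes anaesthesia, handling, incision and blunt dissection of the ganglia, which the design cannot tell apart.

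The pineal gland makes melatonin at night. The signal for this comes through sympathetic nerve fibres from the superior cervical ganglia, which release norepinephrine (NE) in the gland at night. NE acts on adrenergic receptors of the pinealocytes, the main cell type of the gland, and raises cyclic AMP, which turns on a large set of night genes. A sham operation that disturbed the ganglia could therefore be looked for in the genes that NE controls, and the culture and marker libraries of the series give lists of such genes that do not use any Sham or Control library.

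The 12 libraries had between 14107309 (Sham night replicate 3) and 18504240 (Sham night replicate 2) read-pairs counted on 29516 genes. No library was a copy of another, since the chi-square per degree of freedom between replicates was at least 8.19, where sampling noise alone gives about 1. One library stood apart. In Sham night replicate 3, 652 genes were more than 4-fold above the median of the other 5 night libraries, against between 5 and 70 genes in those 5. Of the 652 genes, 436 (66.9%) were in a list of genes enriched in a mixed sample of other tissues. That list held 5.54% of all genes tested. Sham day replicate 3 had 163 genes more than 4-fold above the other day libraries, against between 13 and 40 in the other 5 day libraries. Of the 163 genes, 45 (27.6%) were in the same list. Results are therefore given with and without these libraries where they move. The tables name genes by Ensembl identifier and were not paired with gene symbols here, so pineal markers such as the melatonin enzymes and markers of nerve, glial or blood cells were not looked up, and the tissue was checked only against the pineal-enriched list given below. In libraries of whole glands, fewer cells of a type and less RNA per cell cannot be told apart.

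Sham and Control glands differed by about as much as replicate pools of the same group did. Over the 15893 genes tested, the median absolute difference between a Sham day and a Control day library lay between 0.14 and 0.24 on the log2 scale for the 9 pairs. It lay between 0.15 and 0.20 within Control day and between 0.18 and 0.22 within Sham day. At night the 9 pairs of Sham and Control libraries gave between 0.15 and 0.35, against between 0.15 and 0.21 within Control night and between 0.20 and 0.32 within Sham night. Night and day libraries of the Control group were farther apart, at between 0.32 and 0.40. In a principal component analysis of the 500 most variable genes, component 1 took up 56.2% of the variance and separated night from day in both groups. The second component (20.9%) was set mainly by Sham night replicate 3, with a score of 51.1 against between -16.2 and 8.35 elsewhere, and the third (9.56%) mainly by Sham day replicate 3.

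The Sham libraries varied more among themselves than the Control libraries. The common coefficient of variation between pools, estimated by edgeR within each group of 3, was 12.8% in Control day, 21.0% in Sham day, 16.0% in Control night and 34.8% in Sham night. Without replicate 3 it was 17.3% for the remaining pair of Sham night libraries and 16.4% for the remaining pair of Sham day libraries. These spreads were not tested against each other.

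The comparison of all 6 Sham with all 6 Control libraries, with time as a block, gave no gene that passed the test. Of 15893 genes, 0 (0%) had an adjusted p-value under 0.05 by the quasi-likelihood test of edgeR after Benjamini-Hochberg adjustment, and the smallest adjusted p-value was 0.292. At an unadjusted p-value under 0.05 there were 1185 genes (7.46%), 665 higher (4.18%) and 520 lower (3.27%) in Sham. DESeq2 called 22 genes (0.138%), 12 higher and 10 lower, and limma voom called 0. The genes that DESeq2 called had fold changes with a median of 0.72 on the absolute log2 scale, and all 22 kept their direction in edgeR with an unadjusted p-value under 0.05 but with adjusted p-values between 0.292 and 0.597. Without Sham night replicate 3, edgeR still called 0 genes, with 977 of 15720 genes (6.22%) at an unadjusted p-value under 0.05.

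The 12 genes with the smallest p-values in that comparison show the size of difference that fell short of the threshold. Their absolute log2 fold changes ran from 0.32 to 1.72, with 5 higher and 7 lower in Sham, and all 12 had the same direction at day and at night. The 12 genes were picked by p-value in these same libraries, so a shared direction and separated groups follow in large part from that choice. For 11 of the 12 genes the 3 Sham libraries lay on one side of the 3 Control libraries at both times. Among all genes tested, 116 (0.73%) were separated in this way in the same direction at both times and 109 (0.686%) were separated at both times in opposite directions. At day alone 1898 genes (11.9%) were separated, 959 with Sham above, and at night alone 1951 genes (12.3%), 843 with Sham above.

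The size of effect that the data allow was bounded for most genes. The 95% interval of the fold change, from the edgeR fit, lay wholly within 2-fold for 12963 of the 15893 genes (81.6%) with both times together, for 11991 of 15822 (75.8%) at day and for 10529 of 15780 (66.7%) at night. The median half-width of the interval was 0.27, 0.34 and 0.42 on the log2 scale. The bound depended on the level of the gene. With both times together, 98.8% of genes with a mean of at least 2000 normalised read-pairs were bounded within 2-fold, compared with 93.3% of those between 100 and 500 and 33.7% of those under 20. At night 4.27% of the genes under 20 read-pairs were bounded, with a median half-width of 1.25 on the log2 scale. Most genes of low level were thus not bounded within 2-fold at night. Only 13 genes with both times together, 16 at day and 13 at night had an interval wholly beyond 2-fold.

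**Figure D1:**
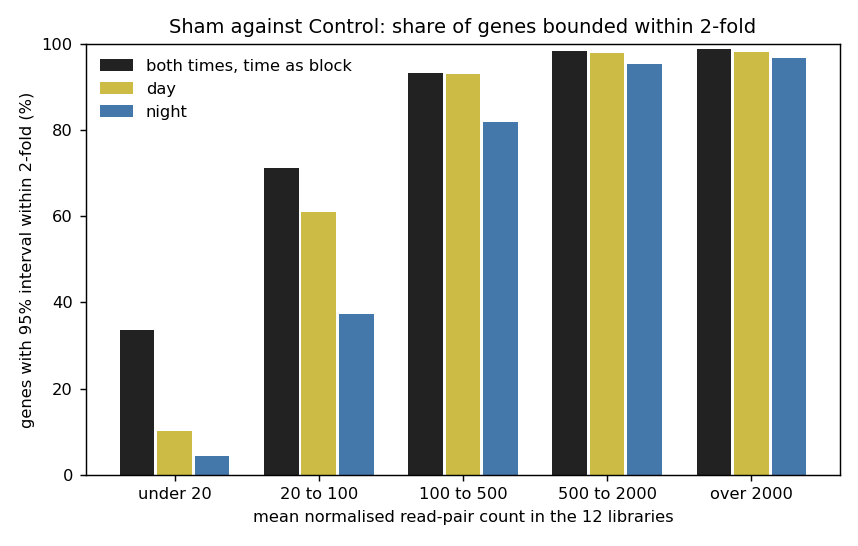
Share of genes (percent, vertical axis) whose 95% interval for Sham against Control lay wholly within 2-fold, by mean normalised read-pair count in the 12 libraries (horizontal axis, 5 classes), for both times with time as a block (black), day (yellow) and night (blue). The share rises from 33.7% in the lowest class to 98.8% in the highest with both times together and is lowest at night in every class.

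At day, Sham against Control glands gave 5 called genes of 15822 (0.0316%) at an adjusted p-value under 0.05 in edgeR's quasi-likelihood test, 3 higher and 2 lower in Sham, and none of them passed an adjusted p-value of 0.001. At an unadjusted p-value under 0.05 there were 1132 genes (7.15%), 602 higher (3.8%) and 530 lower (3.35%), and DESeq2 called 104 (0.657%). The number of calls moved as libraries were left out. Without Control day replicate 1, 2 or 3 there were 0 calls, and without Sham day replicate 2 there was 1. Without Sham day replicate 3 there were 7, which include 4 of the 5 genes, and without Sham day replicate 1 there were 65, which include all 5. The fold changes were of similar size where those calls were lost. Without Control day replicate 1 the log2 values of the genes ENSRNOG00000013825, ENSRNOG00000017637 and ENSRNOG00000038459 were 2.98, -4.78 and -1.32. A single model of all 24 in vivo libraries, which uses a spread shared by all groups, called 0 genes at day.

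The gene ENSRNOG00000013825 rose most among the 3 that were higher in Sham at day. Its level, in CPM (read-pair counts scaled to a common library size, with TMM factors), was 15.5, 14.5 and 9.89 in the 3 Control day libraries and 74.0, 122.5 and 92.9 in the 3 Sham day libraries. The groups did not overlap, and the log2 fold change was 2.86 (SE 0.22, 95% interval 2.36 to 3.36, adjusted p-value 0.0238 by edgeR's quasi-likelihood test). At night the direction was the opposite, with 85.1, 78.2 and 55.3 CPM in Control and 51.8, 44.0 and 36.7 CPM in Sham, and a log2 fold change of -0.69 (SE 0.18, edgeR adjusted p-value 0.655). By the mean, Control day was the lowest of the 4 groups and Sham day the highest for ENSRNOG00000013825, although the Sham day and Control night libraries overlapped. The difference between the Sham effects at night and day was itself called, with a log2 value of -3.56 (SE 0.32, edgeR adjusted p-value 0.00186). In the DCN and SCGX groups, in which the ganglia were cut off from the brain or removed, ENSRNOG00000013825 lay between 13.3 and 105.1 CPM, a range that covers most of the Control and Sham levels. In cultured glands it was lowered by NE, with a log2 fold change of -1.49 (edgeR adjusted p-value 2.88e-08).

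ENSRNOG00000017637 fell most at day. The 3 Control day libraries held 61, 68 and 94 read-pairs on this gene, or 3.91, 4.44 and 5.37 CPM, and the 3 Sham day libraries held 1, 3 and 4 read-pairs, or 0.061, 0.20 and 0.27 CPM. The log2 fold change was -4.67 (SE 0.47, 95% interval -5.75 to -3.59, edgeR adjusted p-value 0.0238). At night ENSRNOG00000017637 had 0, 3 and 1 read-pairs in the Control libraries and 1, 60 and 13 in the Sham libraries, so that 1 Sham night library was at the Control night level and another near the Control day level. Over the 24 in vivo libraries, 15 lay at or below 0.27 CPM and the other 9 at 0.92 CPM or above, and the higher set held 4 of the 12 DCN and SCGX libraries, always beside replicates in the lower set. Replicate pools of the same group thus differed in this gene by as much as Sham and Control did at day.

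ENSRNOG00000038459 was the other gene that was lower in Sham at day. It was at 29.3, 36.2 and 30.7 CPM in Control day and at 13.5, 14.3 and 12.6 CPM in Sham day, with a log2 fold change of -1.26 (SE 0.11, 95% interval -1.52 to -0.99, edgeR adjusted p-value 0.0248). Both night groups lay near the Sham day level, with 10.1, 11.9 and 9.80 CPM in Control and 13.2, 10.9 and 10.3 CPM in Sham. Control day was therefore the group that stood apart for ENSRNOG00000038459, and of the 12 DCN and SCGX libraries 11 lay between 12.8 and 21.2 CPM and 1 (SCGX night replicate 2) at 28.8 CPM.

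The other 2 genes called at day were higher in Sham by smaller amounts. One rose from between 46.2 and 58.0 CPM in Control day to between 94.2 and 110.5 CPM in Sham day, a log2 fold change of 1.02 (SE 0.10, edgeR adjusted p-value 0.0370). Another rose from between 36.9 and 41.5 CPM to between 65.2 and 74.3 CPM, a log2 fold change of 0.81 (SE 0.083). At night their log2 fold changes were -0.15 and 0.13, neither past the threshold. Of the 5 genes called at day, 2 were in the list of genes lowered by NE in culture, which held 118 of the 15822 genes tested. One was in the list of genes enriched in other tissues, which held 773. The list of genes higher in a separate day than night pineal library, described below, held 203 and included 1 of the 5. ENSRNOG00000038459 went the other way with NE in culture, with a log2 fold change of 0.71 (edgeR adjusted p-value 0.0165). With dibutyryl cyclic AMP it was -0.59 (edgeR adjusted p-value 0.0497). ENSRNOG00000017637 was too low in the cultured libraries to be tested.

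**Figure D2:**
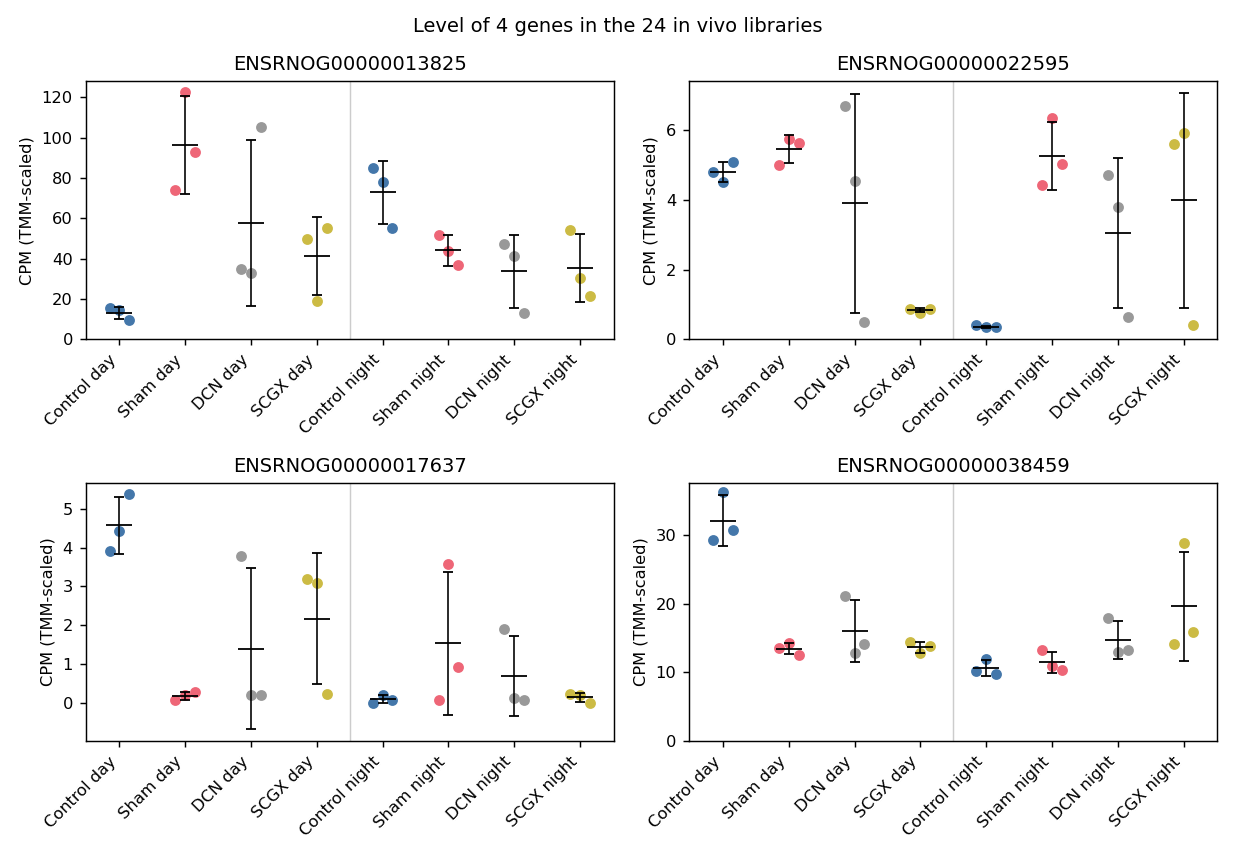
Level (CPM after TMM scaling, vertical axes from 0 or just below it) of 4 genes in the 24 in vivo libraries, by group (horizontal axes). Points are libraries, and black bars are the mean and SD of 3 libraries. Control day stands apart from Sham day for 3 of the genes, Control night stands apart from Sham night for ENSRNOG00000022595, and the DCN and SCGX libraries of 1 group often lie at both the high and the low level.

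At night, 0 of 15780 genes (0%) had an adjusted p-value under 0.05 in edgeR's quasi-likelihood test, and the smallest adjusted p-value was 0.0666. At an unadjusted p-value under 0.05 there were 1096 genes (6.95%), 704 higher (4.46%) and 392 lower (2.48%) in Sham, and DESeq2 called 59 (0.374%), 39 higher and 20 lower. Leaving out Sham night replicate 3 lowered the number at an unadjusted p-value under 0.05 to 754 of 15478 genes (4.87%), 457 higher and 297 lower, again with 0 calls. It also lowered the number of genes with a fitted difference over 2-fold from 1197 (7.59%) to 402 (2.60%). Leaving out Sham night replicate 1 gave 26 calls. In the single model of all 24 in vivo libraries 15 genes were called at night, 8 higher and 7 lower.

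ENSRNOG00000022595 had the smallest p-value at night. It was at 0.40, 0.35 and 0.36 CPM in the Control night libraries, from 6, 5 and 5 read-pairs, and at 4.43, 6.34 and 5.02 CPM in the Sham night libraries, from 63, 106 and 71 read-pairs. The log2 fold change was 3.83 (SE 0.29, 95% interval 3.14 to 4.52), and the edgeR adjusted p-value of 0.0666 missed the threshold. At day the level was 4.81, 4.51 and 5.09 CPM in Control and 4.99, 5.76 and 5.62 CPM in Sham, with a log2 fold change of 0.18 (SE 0.16). Of the 4 groups, Control night was the one apart for ENSRNOG00000022595. The same pair of levels recurred in the DCN and SCGX libraries: over the 24 in vivo libraries 9 lay between 0.35 and 0.88 CPM, 15 lay between 3.79 and 6.68 CPM, and none lay between. All 3 SCGX day libraries were at the low level, as was 1 library each of DCN day, DCN night and SCGX night. NE in culture gave a log2 difference of 0.045 (edgeR adjusted p-value 0.906) for this gene.

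The difference of the Sham effect between night and day was called for 2 of 15893 genes (0.0126%) at an adjusted p-value under 0.05 in edgeR's quasi-likelihood test, and DESeq2 called 39 (0.245%). One gene (0.00629%) also had an adjusted p-value under 0.001 and a difference over 2-fold. At an unadjusted p-value under 0.05 there were 1297 genes (8.16%), with the Sham effect higher at night for 720 (4.53%) and lower for 577 (3.63%). The 2 genes were ENSRNOG00000022595, with a log2 difference of 3.64 (SE 0.30, edgeR adjusted p-value 0.000941), and ENSRNOG00000013825, given above. They moved in opposite directions. With all 24 in vivo libraries in 1 model neither passed, with adjusted p-values of 0.261 and 0.114. Without Sham night replicate 1 there were 18 calls, and without Sham night replicate 3 there were 5.

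The day and night comparisons share no library, so they can be set side by side. Across the 15305 genes tested at both times, the log2 fold changes at day and night had correlations near 0 (Pearson -0.049, Spearman -0.057). The sign was shared by 49.3% of them. These values describe genes, which are not independent of each other. Of the 1063 genes at an unadjusted p-value under 0.05 at day, 457 (43.0%) had the same sign at night, and of the 1006 such genes at night, 520 (51.7%) had the same sign at day. Without Sham night replicate 3 these shares were 49.3% and 57.0%. There were 123 genes at this level at both times, which is 11.6% of the day list and 12.2% of the night list, and 59 of them had the same direction and 64 the opposite one. Without Sham night replicate 3 there were 94 such genes, 48 with the same and 46 with the opposite direction.

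**Figure D3:**
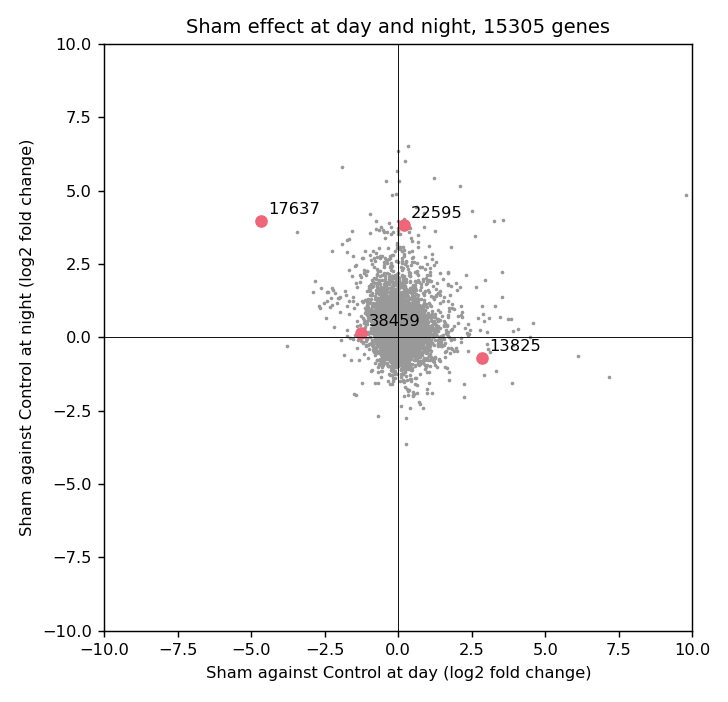
Log2 fold change of Sham against Control at day (horizontal axis) and at night (vertical axis) for 15305 genes (grey points), with the 4 genes described in the text in red, labelled by the last digits of their identifiers. The cloud shows no slope (Pearson -0.049) and extends farther upward than downward.

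Genes that NE controls were then taken from the cultured glands. NE raised 113 genes more than 4-fold (adjusted p-value under 0.001 by edgeR), and their summed level was taken in each library. At day it was 4204, 4094 and 4019 CPM in Control and 4158, 4376 and 4317 CPM in Sham. At night it was 29298, 35634 and 38536 CPM in Control and 41606, 37294 and 29317 CPM in Sham. The groups overlapped at both times. The median night/day difference of these genes was 2.84 on the log2 scale in Control and 2.74 in Sham, whereas it was 0.090 in DCN and -0.21 in SCGX.

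Gene by gene, the NE-raised list had a small positive median in Sham against Control. With both times together 0 of its 108 tested genes were called, and its median log2 fold change was 0.12, compared with 0.0055 over all genes tested. At an unadjusted p-value under 0.05, 17 of the 108 genes were higher in Sham and 0 were lower, or 15.7% against the 7.46% over all genes. At night 23 of 108 were higher and 1 was lower (22.2%, against 6.95% over all genes), with a median of 0.13. Without Sham night replicate 3 there were 22 higher and 1 lower of 107 (21.5%, against 4.87% over all genes), with a median of 0.21. The night median moved with single libraries, from 0.061 without Control night replicate 1 to 0.26 without Control night replicate 3. At day the counts were 8 higher and 3 lower of 96 (11.5%, against 7.15% over all genes), with a median of 0.065. The median with both times together stayed between 0.086 and 0.15 as each of the 12 libraries was left out in turn. Genes of 1 pathway move together from pool to pool, so these counts describe the list and are not a test of it.

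Lists that share genes with the NE-raised list gave similar values. The list lowered by NE, which shares 0 genes with it, had a small negative median. Dibutyryl cyclic AMP (DBcAMP), a form of cyclic AMP that enters cells, raised 203 genes in culture, which include 80.5% of the NE-raised list. Of these, 24 were higher and 2 lower in Sham at an unadjusted p-value under 0.05 among 170 tested with both times together, with a median log2 fold change of 0.15, where all genes gave 4.18% higher and 3.27% lower. Another list held 300 genes that were more than 4-fold higher in a separate night than in a separate day pineal library. Of its 297 tested genes, 34 were higher and 10 lower (14.8%, against 7.46% over all genes). Their median was 0.11, and it was 0.062 without Sham night replicate 2. The 118 genes that NE lowered more than 2-fold in culture had 3 higher and 9 lower (10.2%, against the same 7.46%). Their median was -0.043, and it was -0.090 without Control night replicate 3 and -0.00015 without Control night replicate 1. No gene of these 3 lists was called with both times together, and each of these medians was far below 1, the log2 value of a 2-fold change.

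**Figure D4:**
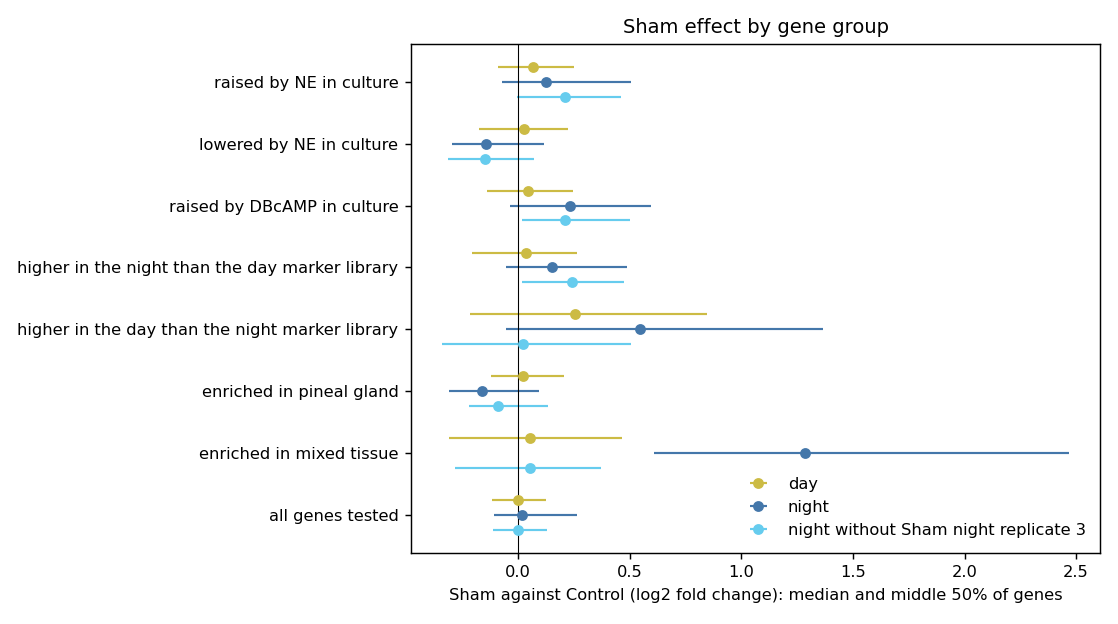
Log2 fold change of Sham against Control (horizontal axis) for 7 gene groups and all genes tested, at day (yellow), at night (dark blue) and at night without Sham night replicate 3 (light blue). Points are medians over the genes tested in each fit, and lines span the middle 50% of them. The group enriched in mixed tissue has a median of 1.28 at night, which is 0.052 without the 1 library, while the NE-raised group has medians between 0.065 and 0.21 in these 3 fits.

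The pineal-enriched genes, which the gland makes at more than 8 times the level of a mixture of other tissues, gave no call between Sham and Control. Their summed level was 62194 ± 1376 CPM (SD, n = 3) in Control day, 58416 ± 4346 in Sham day, 66315 ± 2141 in Control night and 58323 ± 7536 in Sham night, and the lowest values were those of Sham night replicate 3 (49627 CPM) and Sham day replicate 3 (53422 CPM). Of the 179 tested, 0 were called with both times together, 3 were higher and 11 lower at an unadjusted p-value under 0.05, and the median log2 fold change was -0.077. The share at that level was 7.82%, near the 7.46% over all genes, and the median was -0.016 without Sham night replicate 3. At night 6 were higher and 21 lower of 177 (15.3%, against 6.95% over all genes), with a median of -0.16 that was -0.088 without Sham night replicate 3. The sums of the 3 Sham night libraries (62418, 62925 and 49627 CPM) all lay below those of the 3 Control night libraries (64624, 65599 and 68723 CPM), an order that cannot give an exact permutation p-value under 0.1. The interval with both times together lay within 2-fold for 164 of the 179 genes (91.6%). Without both Sham libraries numbered 3 the median was 0.0036.

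Genes of other tissues had a high median in Sham, which rested on 1 library. The list holds 1724 genes that were more than 8-fold higher in the mixed tissue sample than in both separate pineal libraries. Their summed level was 2658, 2989 and 2766 CPM in Control day and 2842, 2483 and 3760 CPM in Sham day, and 2760, 2410 and 2095 CPM in Control night and 2451, 2701 and 12374 CPM in Sham night. Sham night replicate 3 alone was far above the rest, and Sham day replicate 3 was the next highest of the 12. With both times together the median log2 fold change of the 880 tested genes was 0.66, and 0 were called. At an unadjusted p-value under 0.05, 140 were higher and 9 lower (16.9%, against 7.46% over all genes). Without Sham night replicate 3 the median was 0.057, with 55 higher and 26 lower of 739 (10.96%, against 6.22% over all genes). The high median thus rested on that library, while a share above that of all genes remained without it. At night the median was 1.28 with all libraries and 0.052 without that library. Of the 652 genes more than 4-fold higher in Sham night replicate 3, 38 were more than 4-fold above the replicates of Sham day replicate 3 there. The same count was 20 in Sham day replicate 1 and 1 in Sham day replicate 2. In Sham day replicate 3, 163 of all 15893 genes were more than 4-fold above the other day libraries. Of these 163, 33 were more than 4-fold above the replicates of Sham night replicate 3 there. The 2 libraries thus shared part of their high genes, and most of the 652 were not shared.

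**Figure D5:**
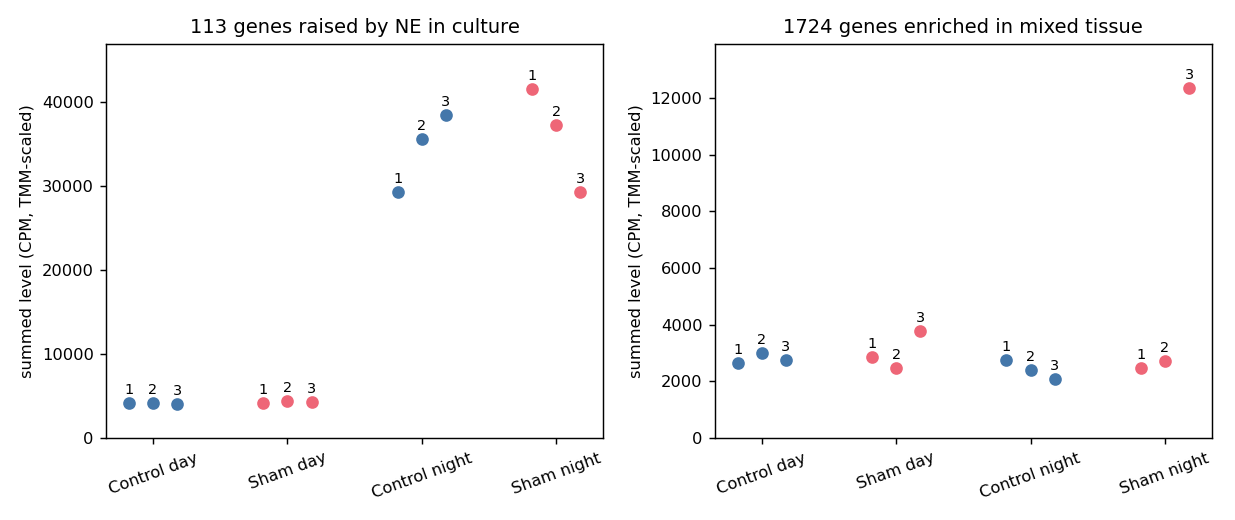
Summed level (CPM after TMM scaling, vertical axes from 0) of the 113 genes raised by NE in culture and of the 1724 genes enriched in mixed tissue, in the 6 Control (blue) and 6 Sham (red) libraries, numbered by replicate. The NE-raised sum overlaps between Control and Sham at both times, and the mixed-tissue sum is 12374 CPM in Sham night replicate 3 and between 2095 and 3760 CPM in the other 11 libraries.

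Genes with the opposite rhythm had a positive median that also depended on the Sham libraries numbered 3. The list holds 245 genes that were more than 4-fold higher in the separate day than in the separate night pineal library. With both times together 199 were tested, 0 were called and the median log2 fold change was 0.41. At an unadjusted p-value under 0.05, 38 were higher and 2 lower (20.1%, against 7.46% over all genes). The median was 0.24 without Sham night replicate 3 and 0.14 without both Sham libraries numbered 3. In the latter fit 15 were higher and 6 lower of 182 (11.5%, against 4.78% over all genes). With all libraries, 1 of 203 genes of the list was called at day, against 0.0316% over all genes. For the difference between times 1 of 199 was called, against 0.0126% over all genes. At day the summed level was 1567, 1687 and 1605 CPM in Control and 1960, 1876 and 2680 CPM in Sham, so that all 3 Sham day libraries lay above all 3 Control day libraries, an order for which an exact permutation test of 3 against 3 cannot go below 0.1. At night it was 963, 619 and 917 CPM in Control and 994, 665 and 1122 CPM in Sham, and the groups overlapped. Of the 245 genes, 40 (16.3%) were also in the mixed-tissue list, and the part of other tissues in this difference was not tested.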

How the data were processed

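RNA from pooled rat pineal glands was sequenced by the authors as stranded, ribo-depleted total RNA, aligned with RNA-STAR to rn4 and counted per Ensembl gene with QoRTs under the HTSeq union rule. The deposited counts are raw read-pairs per gene, and the deposited RPKM values, made by the authors from the same counts, were used only to recover gene lengths. Groups followed the labels. For the fits, edgeR 4.0.16 was run in R 4.3.3 with TMM scaling, the quasi-likelihood test, Benjamini-Hochberg adjustment, and genes with a mean normalised count of at least 5. Standard errors and 95% intervals came from the same fit, and the fits were tested on simulated data. CPM values used the TMM scaling of all 24 in vivo libraries, with a prior count of 2 on the log2 scale. Totals between 14107309 and 18504240 set the precision for genes of low level. Alternatives were DESeq2 1.42.0, limma 3.58.1 voom, other scalings and filters, 1 model of 24 libraries, the replicate number as a block, and leaving out each library. Fits without both Sham libraries numbered 3 were added after the data were seen. A gene is listed as higher in a marker library only above 30 normalised counts (100 for mixed tissue). The comparison and gene lists were chosen with earlier results of these data known. The planned naming rule and marker lists needed gene symbols, which were not matched to the identifiers here, so the 4 identifiers printed were chosen after their values were seen. Figures were drawn with matplotlib. Other libraries entered only as gene lists from culture and marker samples, as DCN and SCGX levels, and in the model of 24 libraries.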

Additional observations from a re-analysis of the deposited data

Results flagged for a closer look

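The difference between Sham and Control pools was not the same at night and day for ENSRNOG00000022595. The log2 difference (night minus day) was 3.64, with an adjusted p-value of 0.000941 in edgeR's quasi-likelihood test of the interaction. All 3 Sham night libraries were above all 3 Control night libraries, and at day the 2 groups overlapped. Replicate pools of the same group also lay far apart for this gene. The DCN day libraries were at 6.68, 4.53 and 0.50 CPM, and the SCGX night libraries at 5.61, 5.92 and 0.43 CPM. The interaction was also called for ENSRNOG00000013825, with a log2 difference of -3.56 and an edgeR adjusted p-value of 0.00186. All 3 Sham libraries were above all 3 Control libraries at day and below them at night for ENSRNOG00000013825. In the single edgeR model of all in vivo libraries neither interaction passed. The adjusted p-values there were 0.261 for ENSRNOG00000022595 and 0.114 for ENSRNOG00000013825.

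Among the libraries that the comparisons here do not use, DCN day replicate 1 had 8948 CPM in the genes enriched in mixed tissue, above the highest Control library at 2989 CPM and below the 12374 CPM of Sham night replicate 3. Of the 652 genes raised more than 4-fold in Sham night replicate 3, 286 were more than 4-fold above the other DCN day libraries in DCN day replicate 1.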

How the results depend on the processing

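With time as a block, 0 genes were called under every alternative run except DESeq2's Wald test (22), each left-out library included. At day (5 calls) there were 10 without a count filter, 104 with DESeq2, 8 with limma voom, and 0 in 1 model of 24 libraries. Leaving out each library gave between 0 and 65 calls at day, between 0 and 26 at night and between 2 and 18 for the difference between times. At night (0 calls) there was 1 without a filter, 59 with DESeq2 and 15 in the model of 24 libraries. The difference between times (2 calls) gave 39 with DESeq2, 4 with the other form of edgeR's quasi-likelihood estimate and 4 without both Sham libraries numbered 3, a choice made after seeing the data. The causes were not tested. The log2 fold change of ENSRNOG00000017637 with time as a block (-0.75) ran from -2.12 (without Sham night replicate 2) to 0.30 as each library was left out, and reversed to 0.30, 0.22 and 0.16 without Sham day replicate 1, 2 and 3. It was -3.53 with limma voom (adjusted p-value 0.378) and -1.26 with the other quasi-likelihood form.

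For same-numbered Sham and Control libraries of 1 time, the correlation of their deviations from the group means was between -0.25 and 0.20. Of these 6 pairs 1 was over 0.1, and pairs with other numbers gave between -0.13 and 0.27. Some same-numbered libraries shared outlying genes. Of 35 genes more than 4-fold high in Sham day replicate 1, 21 were also high in Control night replicate 1. Of 40 in Sham day replicate 2, 14 were high in Control day replicate 2. Of 38 in Sham night replicate 2, 0 were high in Control night replicate 2. Whether equal numbers mark a shared origin was not tested. With the replicate number as a block there were 0 calls with time as a block, 0 at day, 0 at night and 2 for the difference between times.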
